A study of Mus musculus with 4 samples.

Results

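The genes examined were calreticulin (Calr) and 9 further chaperones and foldases of the endoplasmic reticulum (ER): Canx, Hspa5, Hsp90b1, Pdia3, Pdia4, Pdia6, Dnajb9, Sdf2l1 and Hyou1. They are 10 of 56748 genes in a table of RNA sequencing counts, were found by gene symbol, and were chosen by their values in the same contrast that is described here. Their levels and fold changes are therefore given as a description, no p-value of theirs is printed, and the number of them called is given only beside the share of all tested genes. The samples were 2 saline and 2 ADC/cmLumiOpto samples from female BALB/cJ mice, 7 weeks of age when 4T1-FLuc cells were injected through the tail vein. 4T1 is a mouse triple-negative breast cancer (TNBC) line that colonizes the lung, and 4T1-FLuc carries firefly luciferase. The treated mice received CD276-DM1, an antibody-drug conjugate (ADC) that carries the microtubule inhibitor mertansine to CD276, together with cmLumiOpto, a gene therapy whose light-gated channel depolarizes mitochondria.

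The labels give 16 mg/kg of ADC, 3 weeks of treatment, a PBS control and the unexplained word Olap in the name of the gene therapy, whereas the methods give 8 mg/kg and saline. The labels describe 4T1 cells taken from the lung, and the methods describe dissociated lung tissue with 4 samples per group. The epithelial markers Krt8, Krt18, Krt19, Epcam, Cdh1 and Esrp1 were all detected, and so were genes of alveolar, club, stromal and immune cells, so the libraries were not of 4T1 cells alone. Total counts lay between 15263375 and 19675436 per sample. No source says that each sample is 1 mouse, so the p-values below measure only the spread between these samples. In bulk RNA, fewer cells of a type and less RNA per cell cannot be told apart.

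Proteins that enter the secretory pathway fold in the ER with the help of lectin chaperones, heat shock family chaperones and protein disulfide isomerases. When unfolded proteins accumulate, the sensors IRE1, PERK and ATF6 start the unfolded protein response, which raises transcription of many of these chaperones. Calreticulin also reaches the surface of some dying cells, where it acts as an "eat-me" signal, so its protein is used as a marker of immunogenic cell death. Surface exposure is a matter of protein location, which counts of mRNA do not measure.

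The promoters of these genes are the textbook setting of the ER stress element, a CCAAT block and a CCACG block with 9 bases between them (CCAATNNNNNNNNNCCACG). The 250 bases before the annotated start were searched on both strands in the RefSeq promoters of GRCm38.p6, which hold an entry for 9 of the 10 genes. The element was present in 5 of the 9, against 37 of 32851 promoters (0.113%). These stretches are shown because they carry the element, with both blocks in capitals, and each is written 5′ to 3′ on the strand of its gene. The capitals read CGTGG and ATTGG where the element lies on the other strand.
Calr, chr8:84847060-84847108, minus strand: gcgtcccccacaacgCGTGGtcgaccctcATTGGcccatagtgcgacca
Canx, chr11:50325785-50325833, minus strand: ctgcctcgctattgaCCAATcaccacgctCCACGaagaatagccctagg
Hspa5, chr2:34772010-34772058, plus strand: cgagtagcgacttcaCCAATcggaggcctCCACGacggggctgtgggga
Hsp90b1, chr10:86705518-86705671, minus strand: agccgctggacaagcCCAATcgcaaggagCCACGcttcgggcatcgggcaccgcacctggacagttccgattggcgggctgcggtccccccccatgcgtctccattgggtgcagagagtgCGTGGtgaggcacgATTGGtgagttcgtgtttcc
Pdia6, chr12:17266476-17266524, plus strand: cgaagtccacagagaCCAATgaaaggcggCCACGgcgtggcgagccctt

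The element began 162 bases before the start in Calr, 145 in Canx, 65 in Hspa5 and 98 in Pdia6. Hsp90b1 held it at 212 bases and, on the other strand, at 107 bases before the start. Pdia3, Pdia4, Dnajb9 and Sdf2l1 did not hold these letters in this window. For Pdia4 alone, the bases after the annotated start were not found near the start of its GENCODE transcripts. Its window is therefore less certain. All 9 promoters held a CCAAT box, which overlaps the CCAAT block of the element and was present in 33.8% of all promoters. The shorter letters ACGTG, the core of sites bound by XBP1, were found in Calr, Hspa5, Pdia6 and Dnajb9 and in 16.6% of all promoters. The second ER stress element ATTGGNCCACG, held by 0.0304% of promoters, and the ATF6 and XBP1 site TGACGTGG, which contains ACGTG and was held by 0.563%, were found in none of the 9. A match of letters describes the sequence and does not show that a factor was bound.

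Levels are given as CPM, the counts of a gene scaled to library size, after TMM normalization, and between genes only per kb of gene length. Per length, Calr had 358 and 376 CPM per kb in saline 1 and 2 and 517 and 285 in ADC/cmLumiOpto 1 and 2. Hspa5 had 311, 377, 468 and 301 CPM per kb in the same order. These were the most abundant of the 10, and their ranges overlapped, Calr being above Hspa5 in the samples numbered 1 and below it in those numbered 2. Pdia3 came next, between 221 and 375 CPM per kb. Canx (124 to 172), Pdia6 (135 to 202) and Hsp90b1 (127 to 195) could not be ordered beyond their spread, and Pdia4 lay below them at 68.7 to 119 CPM per kb. Hyou1 (23.0 to 33.5), Sdf2l1 (24.6 to 66.1) and Dnajb9 (14.2 to 25.3) were the least abundant, again with overlapping ranges.

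**Figure D1:**
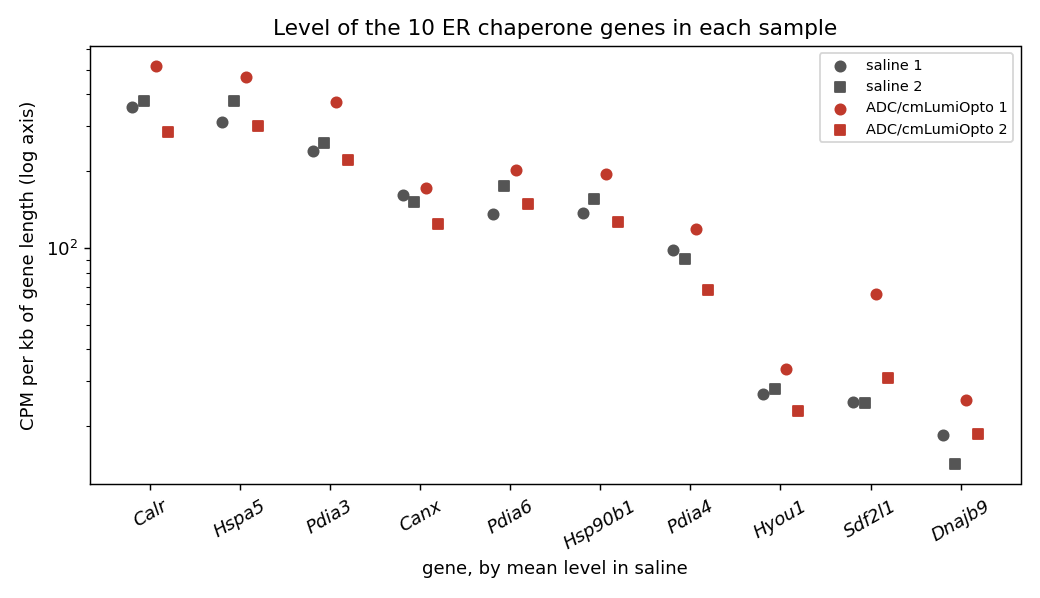
Level of each of the 10 genes in CPM per kb of gene length on a log axis, with 1 point per sample (grey, saline; red, ADC/cmLumiOpto; circles, sample 1; squares, sample 2). Genes run from Calr at a saline mean of 367 CPM per kb to Dnajb9 at 16.3, and the red circle is the highest point of every gene.

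Together the 10 genes took 0.539% of all counts in saline 1 (95% exact binomial interval 0.535 to 0.542) and 0.580% in saline 2 (0.576 to 0.584). They took 0.756% in ADC/cmLumiOpto 1 (0.752 to 0.760) and 0.505% in ADC/cmLumiOpto 2 (0.502 to 0.508), and these intervals cover counting error only. The saline samples thus lay between the treated samples, of which the first was the highest of the 4 and the second the lowest. No group difference of the sum was larger than the spread between the treated samples.

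Calreticulin and calnexin are lectins that hold glycoproteins with trimmed sugars until they are folded, and Pdia3 (ERp57) is the disulfide isomerase that works with both. Calr was at 1030 and 1083 CPM in saline 1 and 2, and at 1489 and 821 in ADC/cmLumiOpto 1 and 2. The saline samples differed little, and the treated samples lay on either side of them. The means were 1056 ± 37.2 CPM in saline and 1155 ± 472 in ADC/cmLumiOpto (SD, n = 2 each), a log2 fold change of 0.13 with a standard error (SE) of 0.28. ADC/cmLumiOpto 1 was 1.41 times the saline mean and ADC/cmLumiOpto 2 was 0.777 times it, so that the direction turned to -0.36 without the first and was 0.49 without the second.

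Canx, the membrane-bound lectin, was at 756, 712, 806 and 580 CPM in saline 1, saline 2, ADC/cmLumiOpto 1 and ADC/cmLumiOpto 2. Its log2 fold change was -0.08 (SE 0.20), and with upper-quartile scaling it was 0.01. Pdia3 was at 751, 812, 1176 and 695 CPM in the same order, with a log2 fold change of 0.26 (SE 0.26). Both genes repeated the order of Calr among the treated samples, with ADC/cmLumiOpto 1 highest and ADC/cmLumiOpto 2 lowest, so the groups overlapped. Without ADC/cmLumiOpto 1 the log2 fold change was -0.34 for Canx and -0.17 for Pdia3, and without ADC/cmLumiOpto 2 it was 0.13 and 0.58, respectively.

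Hspa5 (BiP), the HSP70 of the ER that also keeps the stress sensors inactive, was at 1315 and 1596 CPM in saline and at 1981 and 1272 in ADC/cmLumiOpto. Its log2 fold change was 0.16 (SE 0.25), a fold of 1.12 within a 1.56-fold difference between the treated samples. Hsp90b1 (GRP94), the HSP90 of the ER, was at 552, 625, 785 and 510 CPM in the order used above, with a log2 fold change of 0.14 (SE 0.24). Hyou1 (GRP170), a large HSP70-like protein that exchanges the nucleotide of Hspa5, was at 194, 203, 242 and 166 CPM, with 0.04 (SE 0.21). In all 3 of these chaperones the treated samples enclosed the saline samples. Without ADC/cmLumiOpto 1 the log2 fold changes were -0.19 for Hspa5, -0.20 for Hsp90b1 and -0.26 for Hyou1, and without ADC/cmLumiOpto 2 they were 0.44, 0.41 and 0.28. Without saline 1 that of Hyou1 was also below 0.

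Pdia4 (ERp72) and Pdia6 (P5) are disulfide isomerases that form and rearrange disulfide bonds. Pdia4 was at 236, 216, 285 and 165 CPM, a log2 fold change of -0.01 (SE 0.27), which ran from -0.19 to 0.08 under the other settings that kept all samples. Pdia6 was at 507, 657, 757 and 554 CPM, a log2 fold change of 0.17 (SE 0.22). The groups overlapped in both, and in Pdia6 saline 1 and not ADC/cmLumiOpto 2 was the lowest sample. Without ADC/cmLumiOpto 1 the values were -0.46 for Pdia4 and -0.07 for Pdia6, and without ADC/cmLumiOpto 2 they were 0.33 and 0.38. Without saline 1 that of Pdia6 was also below 0.

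Dnajb9 (ERdj4) and Sdf2l1 work with Hspa5, Dnajb9 as a J-domain co-chaperone and Sdf2l1 as a partner of ER J-domain proteins. Sdf2l1 was at 27.7 and 27.3 CPM in saline and at 73.3 and 34.2 in ADC/cmLumiOpto, from 405 to 1293 counts. Both treated samples were above both saline samples, the second by 1.24 times over the higher of them. The means were 27.5 ± 0.280 and 53.8 ± 27.6 CPM (SD, n = 2 each), a log2 fold change of 0.97 (SE 0.34) and a fold of 1.95. Without ADC/cmLumiOpto 1 the log2 fold change was 0.32, and without ADC/cmLumiOpto 2 it was 1.41.

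Dnajb9 was at 47.2 and 36.1 CPM in saline and at 64.6 and 47.6 in ADC/cmLumiOpto, a log2 fold change of 0.43 (SE 0.22). The groups did not overlap, but ADC/cmLumiOpto 2 exceeded saline 1 by only 1.01 times. Without ADC/cmLumiOpto 1 the log2 fold change was 0.19, and without ADC/cmLumiOpto 2 it was 0.63. Sdf2l1 and Dnajb9 were the only members with both treated samples above both saline samples, and this count was 2 under each of 4 scalings (TMM, library size, upper quartile and DESeq2 size factors).

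**Figure D2:**
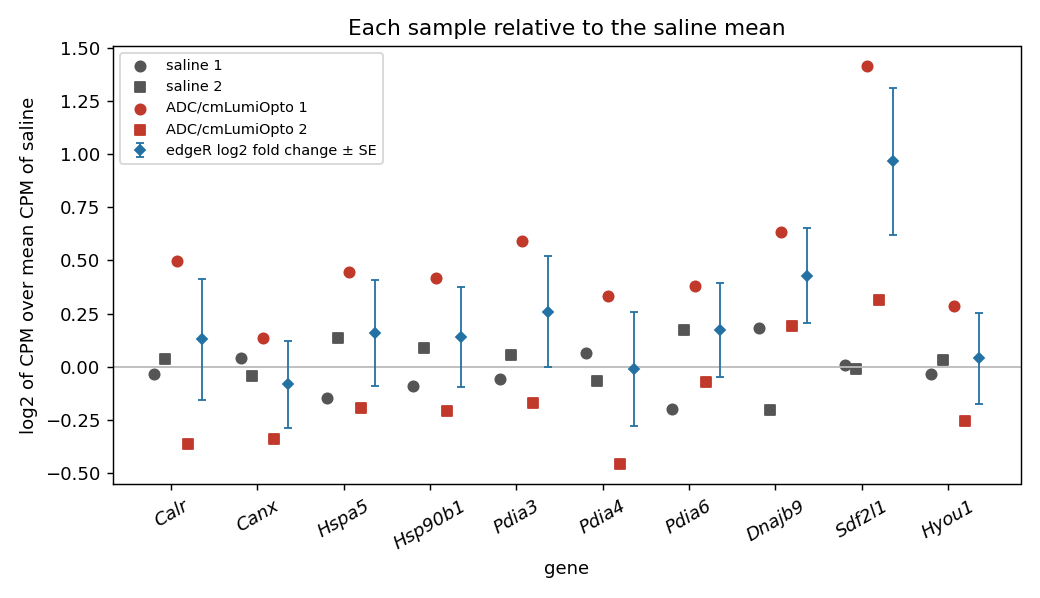
Log2 of CPM over the mean CPM of saline for each gene and sample (grey, saline; red, ADC/cmLumiOpto; circles, sample 1; squares, sample 2), with the edgeR log2 fold change and its SE in blue. The treated samples lie on either side of 0 in 8 genes and both above 0 in Dnajb9 and Sdf2l1, whose fold changes are 0.43 and 0.97.

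Of the 10 genes, all passed the filter on low counts and 8 had a log2 fold change above 0, where 52% of the 15320 tested genes did. The number was 9 with library size alone, 10 with upper-quartile scaling and 2 without ADC/cmLumiOpto 1, namely Dnajb9 and Sdf2l1. The median log2 fold change of the 10 was 0.15, beside 0.03 over all tested genes. Both treated samples were above both saline samples in 2 of the 10, where 28.1% of tested genes had that order, and below in 0, where 28.8% did. Since the genes were chosen on this contrast, nothing is read from these counts.

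The quasi-likelihood test of edgeR called none of the 10 at an adjusted p under 0.05, nor any of the 15320 genes (0%), the smallest adjusted p being 0.116. At an unadjusted p under 0.05 it had 1 of the 10 higher and 0 lower, where 11% of tested genes were higher and 12.2% lower. The exact test of edgeR called 0 of the 10, with 3.96% of tested genes called higher and 3.68% lower. DESeq2 called 0 of the 10 too, with 3.75% called higher and 4.94% lower. Only without the filter on low counts was 1 of the 10 called higher by the quasi-likelihood test, with 4.79% of 25563 genes called higher. These calls are not read as a result either, because the genes were chosen on this contrast.

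The treated samples differed by more than the log2 fold change between the groups in each of the 10 genes. In Dnajb9 this was only just so, at 0.44 against 0.43 on a log2 scale. A difference between 2 single samples varies more than one between means of 2. The share of all tested genes with the larger difference in the treated group was not counted. ADC/cmLumiOpto 1 was the highest of the 4 samples in all 10 genes, where it was the highest in 29.8% of tested genes. In 7 of the 10, that is all but Pdia6, Dnajb9 and Sdf2l1, ADC/cmLumiOpto 2 was also the lowest, an order that 5.39% of tested genes showed. With library size alone or upper-quartile scaling, ADC/cmLumiOpto 2 was the lowest in 6, because Hspa5 left this group. The treated samples differed by 1.36 times (Dnajb9) to 2.14 times (Sdf2l1).

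On a log2 scale, with 0.1 CPM added, ADC/cmLumiOpto 1 exceeded ADC/cmLumiOpto 2 by a median of 0.63 over the 10 genes (0.44 to 1.10), beside -0.02 over all tested genes. Saline 2 exceeded saline 1 by a median of 0.07 (-0.39 for Dnajb9 to 0.37 for Pdia6), beside -0.01. The order of the treated samples was thus shared by the 10 genes, while that of the saline samples was mixed.

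**Figure D3:**
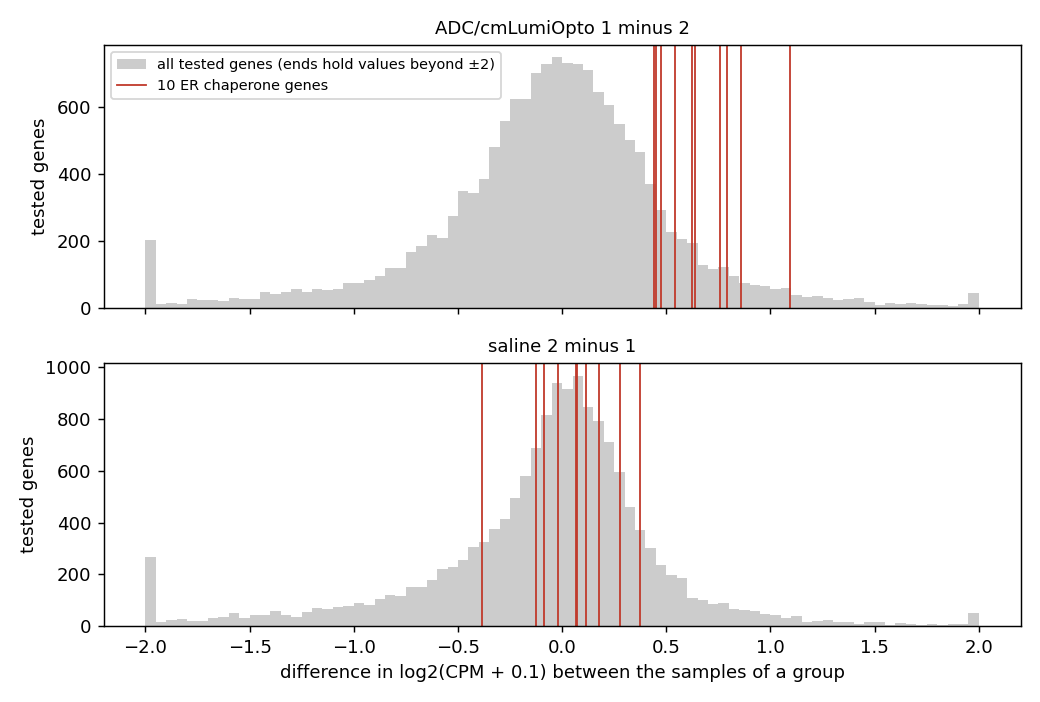
Histograms of the difference in log2(CPM + 0.1) between the treated samples (top) and the saline samples (bottom) over all tested genes in grey, with the 10 genes as red lines. In the treated group all 10 lie between 0.44 and 1.10, and in the saline group they lie on both sides of 0.

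The most abundant genes kept similar shares of the sum. By CPM per kb, Calr made up 23.7, 22.8, 23.8 and 21.2% of the sum over the 10 in saline 1, saline 2, ADC/cmLumiOpto 1 and ADC/cmLumiOpto 2. Hspa5 made up 20.6, 22.9, 21.6 and 22.3%. Sdf2l1 had 1.66 and 1.49% in saline and 3.05 and 2.29% in ADC/cmLumiOpto. Both treated samples were thus above both saline samples by this measure too. Pdia3 had this order as well, by a smaller step, with 15.85 and 15.67% in saline and 17.24 and 16.45% in ADC/cmLumiOpto. Canx had 10.7 and 9.19% in saline and 7.91 and 9.18% in ADC/cmLumiOpto. Both treated samples were below both saline samples there, though saline 2 and ADC/cmLumiOpto 2 were almost level.

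The 5 tested genes with the pattern nearest to Calr, by root mean square distance of log2 CPM centred over the 4 samples, were Rbp2, Gm5801, Gm5555, Gpx8 and Txnl4a, at distances of 0.02 to 0.05. Rbp2 was at 8.75, 8.96, 12.5 and 7.02 CPM and Gpx8 at 52.0, 58.8, 77.2 and 41.2 CPM in the order used above. By the same distance, Pdia3 ranked 29 of 15319 genes, Hsp90b1 51, Pdia4 59, Hspa5 80 and Hyou1 85. Canx ranked 361, Pdia6 546, Dnajb9 2686 and Sdf2l1 7058. With 4 samples such a ranking describes a shape and carries no test.

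The cell type markers moved with the samples too. Summed over their lists, alveolar type 2 markers were at 1491 and 313 CPM in saline and 5524 and 4658 in ADC/cmLumiOpto, and club cell markers were at 1145 and 79.1 and at 6188 and 2944. Fibroblast markers were at 5071 and 3466 CPM in saline and at 1722 and 1397 in ADC/cmLumiOpto. Neutrophil markers were at 1120, 462 and 1133 CPM in saline 1, saline 2 and ADC/cmLumiOpto 1 and at 7828 in ADC/cmLumiOpto 2, the sample in which 7 of the 10 chaperones were lowest. All 5 neutrophil markers were higher in ADC/cmLumiOpto 2 than in any other sample.

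Tumor and simple epithelium markers were at 2624, 2987, 2556 and 2469 CPM. Most of this was Krt8 (1141, 1543, 1131 and 1117 CPM) and Krt18 (906, 1005, 790 and 820 CPM). Of these 6 markers, 2 had a log2 fold change above 0 and 4 below, from -0.29 for Esrp1 to 0.36 for Cdh1. The part of tumor cells in this sum was not tested. Macrophage markers were at 645, 660, 558 and 502 CPM, endothelial markers at 427, 343, 418 and 628, and T cell markers at 37.1, 14.2, 74.8 and 33.6. Alveolar type 1 markers were at 196, 75.2, 582 and 580 CPM. The 6 plasma cell markers, of a cell type rich in ER chaperones, were at 619, 532, 524 and 442 CPM in sum. Most of this was Sdc1 (326, 354, 275 and 237 CPM) and Xbp1 (177 to 243 CPM), which epithelial cells also express. Jchain had 768, 12, 110 and 21 counts, Derl3 had 14, 4, 8 and 5, Mzb1 had 6, 0, 0 and 2, and Tnfrsf17 had none in any sample. The part of any of these cell types, plasma cells included, in the chaperone levels was not tested.

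**Figure D4:**
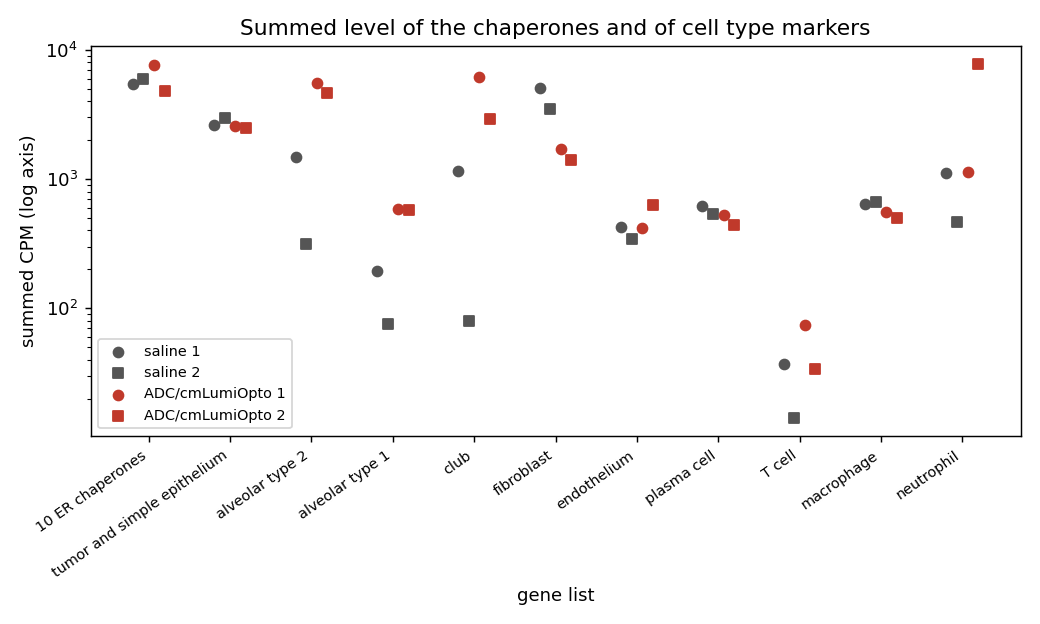
Summed CPM on a log axis for the 10 chaperones and for each list of cell type markers, with 1 point per sample (grey, saline; red, ADC/cmLumiOpto; circles, sample 1; squares, sample 2). Neutrophil markers reach 7828 CPM in ADC/cmLumiOpto 2, where the chaperone sum is lowest at 4845.

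The wider machinery of the ER was described with lists of genes, beside a median log2 fold change of 0.03 for all tested genes. No gene of any list was called by the quasi-likelihood test, and the counts by the exact test and DESeq2 are given for each. They stand beside the shares of all tested genes. At an unadjusted p under 0.05, 11% of all tested genes were higher and 12.2% lower. The exact test called 3.96% higher and 3.68% lower, and DESeq2 called 3.75% higher and 4.94% lower. Nothing is read from list counts near these shares. Of 30 tested genes among the other ER foldases and chaperones, 19 were above 0 and 11 below, with a median of 0.07. The quasi-likelihood test had 4 higher and 2 lower at an unadjusted p under 0.05, the exact test called 0, and DESeq2 called 2 higher and 1 lower. Ppic, a prolyl isomerase, was at 37.6, 42.3, 78.4 and 55.4 CPM (log2 fold change 0.74, SE 0.21, edgeR adjusted p = 0.134, DESeq2 adjusted p = 0.0479). Creld2, an ER stress-induced protein, was at 31.6, 38.0, 69.8 and 48.7 CPM (0.77, SE 0.22, edgeR adjusted p = 0.137). In both genes the treated samples were above the saline samples, and ADC/cmLumiOpto 1 was the higher one, as in the 10 genes. The list median minus that of all tested genes, 0.04, was -0.04 without saline 1, -0.09 without ADC/cmLumiOpto 1 and 0.18 without ADC/cmLumiOpto 2.

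The collagen chaperones of the ER lay on the other side, with 3 of 13 above 0 and 10 below and a median of -0.23. At an unadjusted p under 0.05, 0 were higher and 2 lower, and the exact test and DESeq2 each called 1 lower. This was Fkbp10, a collagen prolyl isomerase, at 49.6, 35.6, 17.8 and 20.4 CPM, a log2 fold change of -1.16 (SE 0.22). Its adjusted p was 0.116 by the quasi-likelihood test of edgeR, 0.00292 by the exact test and 0.00195 by DESeq2. Plod1, a collagen lysyl hydroxylase, was at 128, 118, 91.2 and 94.2 CPM (-0.41, SE 0.16, edgeR adjusted p = 0.191). The list median minus that of all tested genes, -0.26, was -0.41 without saline 1, -0.40 without ADC/cmLumiOpto 1 and -0.16 without ADC/cmLumiOpto 2. The fibroblast markers given above were lower in the same samples, and their part in these values was not tested.

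The KDEL receptors return escaped ER chaperones from the Golgi. Kdelr1 was at 107, 104, 122 and 107 CPM, with a log2 fold change of 0.12 (SE 0.16). Saline 1 and ADC/cmLumiOpto 2 were level in Kdelr1. Its groups overlapped with TMM, while both treated samples were above both saline samples under each of the 3 other scalings. Kdelr2 was at 164, 148, 148 and 121 CPM (-0.22, SE 0.18) and Kdelr3 at 57.0, 50.8, 46.0 and 37.3 CPM (-0.37, SE 0.18). In Kdelr3 both treated samples were below both saline samples. In Kdelr2 saline 2 and ADC/cmLumiOpto 1 were level, at 144 and 146 CPM by library size alone, and the groups overlapped under each of the 3 scalings other than TMM. Of the receptors, 0 was called by any of the 3 tests or passed an unadjusted p of 0.05. The list median minus that of all tested genes, -0.24, was -0.37 without ADC/cmLumiOpto 1 and -0.06 without ADC/cmLumiOpto 2, and -0.48 with the gene-length trend removed.

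Among the enzymes and lectins that serve calnexin and calreticulin, 6 of 12 were above 0 and 6 below, with a median of -0.01, 1 higher and 0 lower at an unadjusted p under 0.05, and 0 called by the exact test or DESeq2. Mogs, the glucosidase that trims the first glucose, was at 55.4, 46.0, 84.6 and 68.7 CPM (log2 fold change 0.59, SE 0.19, edgeR adjusted p = 0.149). Mcfd2, a partner of the cargo lectin Lman1, was at 80.3, 82.0, 112 and 96.4 CPM (0.36, SE 0.17, edgeR adjusted p = 0.244). ADC/cmLumiOpto 1 was the highest sample in 8 of these 12 genes, beside 29.8% of all tested genes. Relative to all tested genes the median, -0.04, was -0.23 without ADC/cmLumiOpto 1 and 0.27 without ADC/cmLumiOpto 2. It was 0.03 without either saline sample and 0.12 with the gene-length trend removed.

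The translocon, signal peptidase and oligosaccharyltransferase, through which new proteins enter the ER and receive their sugars, had 17 of 26 genes above 0 and a median of 0.15. At an unadjusted p under 0.05, 3 were higher and 1 lower, the exact test called 1 higher and 0 lower, and DESeq2 called 2 higher and 0 lower. Sec11c, a signal peptidase subunit, was at 36.9, 38.1, 63.8 and 58.4 CPM (log2 fold change 0.70, SE 0.16). Its adjusted p was 0.116 by the quasi-likelihood test of edgeR, 0.0308 by the exact test and 0.0193 by DESeq2. Sec61b, a translocon subunit, was at 67.4, 64.2, 131 and 89.4 CPM (0.74, SE 0.22), with an adjusted p of 0.138, 0.0677 and 0.039 by the same 3 tests of edgeR and DESeq2. The median relative to all tested genes, 0.12, was 0.03 without saline 1, -0.07 without ADC/cmLumiOpto 1 and 0.34 without ADC/cmLumiOpto 2.

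ER-associated degradation, which removes proteins that fail to fold, had 10 of 24 genes above 0 and 14 below, with a median of -0.09. At an unadjusted p under 0.05, 4 were higher and 3 lower, the exact test called 1 in each direction and DESeq2 called 2 in each direction. Selenok, a selenoprotein of the ER membrane, was at 69.1, 67.2, 134 and 107 CPM (log2 fold change 0.82, SE 0.18), and Vcp, the ATPase that pulls proteins from the membrane, was at 558, 536, 333 and 348 CPM (-0.68, SE 0.15). Both had an adjusted p of 0.116 by the quasi-likelihood test of edgeR, and the exact test gave 0.0194 for Selenok and 0.0347 for Vcp. The adjusted p by DESeq2 was 0.0056 for Selenok and 0.0039 for Vcp. The list thus held members that lay apart from saline in opposite directions. Relative to all tested genes its median, -0.12, ran from -0.18 to -0.09 with samples left out in turn and was -0.06 with the gene-length trend removed.

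**Figure D5:**
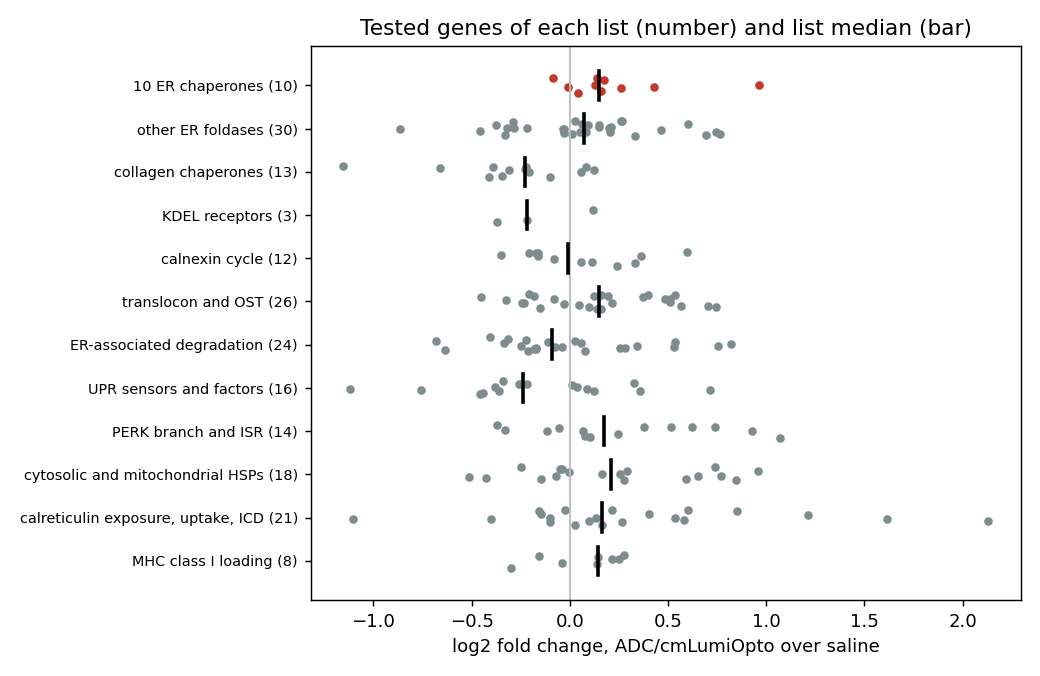
Log2 fold change of ADC/cmLumiOpto over saline for every tested gene of the 10 chaperones (red) and of the wider lists (grey), with the number tested in brackets and the list median as a black bar. Medians run from -0.24 for the sensors and transcription factors of the unfolded protein response (UPR) to 0.21 for the cytosolic and mitochondrial heat shock proteins (HSPs); OST stands for oligosaccharyltransferase, ISR for integrated stress response and ICD for immunogenic cell death.

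Among sensors and transcription factors of the unfolded protein response, 7 of 16 genes were above 0 and 9 below, with a median of -0.24. Ern1 (IRE1) was at 60.7, 52.2, 51.5 and 62.3 CPM (log2 fold change 0.01, SE 0.18), and its target Xbp1 at 243, 177, 243 and 203 CPM (0.09, SE 0.21). The total count of Xbp1 does not separate the spliced from the unspliced form. Atf6 was at 110, 120, 78.6 and 97.8 CPM (-0.38, SE 0.18) with both treated samples below the saline samples, and Eif2ak3 (PERK) was at 41.4, 28.9, 28.8 and 31.7 CPM (-0.22, SE 0.22). At an unadjusted p under 0.05, 1 gene was higher and 4 lower, the exact test called 1 in each direction, and DESeq2 called 1 higher and 2 lower. The median relative to all tested genes, -0.27, was -0.10 without saline 1 and -0.11 with the gene-length trend removed.

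Creb3 and Creb3l2 are ER-anchored transcription factors of the same family. Creb3 was at 49.1, 41.6, 81.7 and 67.2 CPM (log2 fold change 0.71, SE 0.18), and Creb3l2 was at 115, 103, 59.7 and 69.2 CPM (-0.76, SE 0.17). The adjusted p of Creb3 was 0.123 by the quasi-likelihood test of edgeR, 0.0466 by the exact test and 0.0294 by DESeq2. That of Creb3l2 was 0.116, 0.0269 and 0.00879 by the same tests of edgeR and DESeq2. The groups did not overlap in either gene.

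The PERK branch and integrated stress response had 10 of 14 genes above 0 and 4 below, with a median of 0.17. The quasi-likelihood test had 2 higher and 0 lower at an unadjusted p under 0.05, and the exact test and DESeq2 each called 2 higher and 0 lower. These were the stress-induced transcription factors Atf5, at 45.7, 44.6, 94.8 and 76.8 CPM (log2 fold change 0.93, SE 0.18), and Atf3, at 8.88, 7.08, 19.3 and 14.2 CPM (1.07, SE 0.29). The adjusted p of Atf5 was 0.116 by the quasi-likelihood test of edgeR, 0.00548 by the exact test and 0.00187 by DESeq2. That of Atf3 was 0.124, 0.0428 and 0.0289 by the same tests of edgeR and DESeq2. Relative to all tested genes the list median, 0.15, was 0.09 without saline 1, 0.30 without ADC/cmLumiOpto 1 and -0.005 without ADC/cmLumiOpto 2, and 0.10 with the gene-length trend removed.

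Heat shock proteins outside the ER had 10 of 18 genes above 0 and 8 below, with a median of 0.21, 4 higher and 1 lower at an unadjusted p under 0.05, and 1 higher and 0 lower by the exact test and by DESeq2. Hspa1b, a stress-inducible HSP70 with a near-identical copy in Hspa1a that can share its reads, was at 39.9, 29.1, 58.7 and 56.5 CPM (log2 fold change 0.74, SE 0.20). Its adjusted p was 0.126 by the quasi-likelihood test of edgeR, 0.0494 by the exact test and 0.0364 by DESeq2. Hspb1, a small heat shock protein, was at 18.9, 18.4, 31 and 27.6 CPM (0.65, SE 0.19, edgeR adjusted p = 0.137). ADC/cmLumiOpto 1 was the highest sample in 14 of the 18, beside 29.8% of all tested genes. The median relative to all tested genes, 0.18, turned to -0.14 without ADC/cmLumiOpto 1. It was 0.39 without ADC/cmLumiOpto 2, and 0.09 without saline 1 or with the gene-length trend removed.

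Genes of calreticulin exposure, its uptake and immunogenic cell death had 14 of 21 above 0 and 7 below, with a median of 0.16. At an unadjusted p under 0.05, 6 were higher and 1 lower, the exact test called 2 higher and 1 lower, and DESeq2 called 3 higher and 1 lower. Relative to all tested genes the median, 0.13, was 0.29 without saline 1 and 0.09 without saline 2. Lrp1, a receptor through which phagocytes take up cells with surface calreticulin, was at 803, 1033, 359 and 495 CPM (log2 fold change -1.10, SE 0.23). Its adjusted p was 0.116 by the quasi-likelihood test of edgeR, 0.0042 by the exact test and 0.000541 by DESeq2. Lrp1 is also a receptor of fibroblasts, whose markers were lower in the same samples, and their part was not tested.

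Snap23, a membrane fusion protein used when calreticulin reaches the cell surface, was at 42.8, 47.1, 79.5 and 82.7 CPM (log2 fold change 0.85, SE 0.16). Its adjusted p was 0.116 by the quasi-likelihood test of edgeR, 0.00689 by the exact test and 0.0021 by DESeq2. The highest value of the list was that of Ager, named here after its values were seen, at 136, 47.0, 422 and 379 CPM (2.13, SE 0.46). Ager is a receptor for HMGB1 and a marker of alveolar type 1 cells, whose markers were higher in the same samples.

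MHC class I peptide loading, in which calreticulin and Pdia3 take part, had 5 of 8 genes above 0 and 3 below, with a median of 0.14, 0 at an unadjusted p under 0.05 and 0 called by the exact test or DESeq2. H2-D1, a class I heavy chain whose reads can be shared with related class I genes, was at 2224, 2150, 2842 and 2226 CPM (log2 fold change 0.21, SE 0.19). Erap1, the peptidase that trims peptides for class I, was at 152, 134, 134 and 99.0 CPM (-0.30, SE 0.20). ADC/cmLumiOpto 1 was the highest sample in 7 of these 8 genes, beside 29.8% of all tested genes. The median relative to all tested genes, 0.12, was 0.015 without saline 2, -0.20 without ADC/cmLumiOpto 1 and 0.41 without ADC/cmLumiOpto 2, and -0.06 with the gene-length trend removed. Among the lists without this count above, ADC/cmLumiOpto 1 was the highest in 20 of 30 other ER foldases and chaperones. It was the highest in 17 of 26 genes of the translocon list and 7 of 21 of the calreticulin exposure list. For ER-associated degradation the count was 7 of 24, and for unfolded protein response sensors and factors 4 of 16. It was 4 of 14 in the PERK list, 2 of 13 in collagen chaperones and 1 of 3 in KDEL receptors.

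The genes whose promoters carry the ER stress element numbered 35, of which 16 were tested, 5 of them being Calr, Canx, Hspa5, Hsp90b1 and Pdia6, whose sequences are printed above. This set was drawn up after the values were seen. Of the other 11, 6 were above 0, with a median log2 fold change of 0.01. ADC/cmLumiOpto 1 was the highest sample in 3 of the 11, beside 29.8% of all tested genes. It was the highest in all 5 of the chaperones, which were chosen on this contrast. Creld2, given above, and Alg12, a mannosyltransferase of glycan assembly at 125, 124, 226 and 221 counts (0.54, SE 0.27), had both treated samples above both saline samples, an order that 28.1% of all tested genes had. Adcy3 (-0.72, SE 0.29), Calr4 (-1.52, SE 0.61) and Hnrnpa3 (-0.46, SE 0.21) had both below, as 28.8% of all tested genes did. Sdf2l1 and Dnajb9 did not hold the element in the window searched. The part of the element in any of these values was not tested.

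Reads of overlapping genes could add to these counts, since no source states whether counting used strand. The overlapping neighbours had few counts beside the chaperones. The highest were Atp6v1c2, on the opposite strand of Pdia6, with 22, 6, 85 and 143 counts beside 8110 to 13359 of Pdia6, and 1810014B01Rik, opposite Hsp90b1, with 41, 40, 75 and 95 counts. The pseudogene Calr-ps had no count in any sample.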

How the data were processed

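The authors aligned reads with HISAT2; the methods name GRCm38, the submitters' processing notes mm39, and the counting program is not given in the sources used here. The deposited values are counts, the whole number of reads per gene, without normalization, for 2 saline and 2 ADC/cmLumiOpto samples, grouped by sample title.

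Counts were analysed in R 4.3.3 with edgeR 4.0.16 over all genes kept by filterByExpr (minimum count 10, minimum total 15). TMM normalization, glmQLFit, glmQLFTest and Benjamini-Hochberg adjustment were used, and calls were made at an adjusted p under 0.05. Total counts lay between 15263375 and 19675436, and 3 counts, taken as the floor, were 0.146 to 0.202 CPM, for counting error only. A prior count of 0.125 entered the log2 fold changes. The code for the calls was run on simulated data with large changes, which checks the code and does not measure the power in these data. The alternatives were DESeq2 1.42.0, the exact test, library size, upper-quartile scaling, other filters, a gene-length correction (lowess span 0.3), a replicate block and each sample left out.

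The members and lists were chosen with earlier results of these data known. The genes named are the members, the KDEL receptors, Ern1, Xbp1, Atf6 and Eif2ak3, the 2 of each list with the smallest p, and the 5 nearest to Calr. Promoters came from RefSeq (GRCm38.p6); positions in the deposited table were not used.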

Additional observations from a re-analysis of the deposited data

How the results depend on the processing

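The number of genes called, 0 of 15320 by the quasi-likelihood test of edgeR (3553 at an unadjusted p under 0.05), was 1332 with DESeq2, which gave 1486 genes no adjusted p, 1170 with the exact test and 2259 without the filter on low counts. It was 0 with library size, upper-quartile scaling, the strict filter or the length correction. With samples left out in turn it was 0 to 218, the most without saline 1, and the lone sample of a group is then assumed to vary like the other group. With the replicate number as a replicate block it was 607, but the labels do not say that a number marks a shared mouse or day. The deviations of same-numbered samples correlated at r = 0.099. With 2 samples per group this value cannot decide whether same-numbered samples share more than a number. The block called 0 of the 10 chaperones, as did the other settings that kept all samples, except the one without a filter, which called 1. The median log2 fold change of the 10 minus that of all tested genes, 0.12, was -0.02 without saline 1, 0.19 without saline 2, -0.21 without ADC/cmLumiOpto 1, 0.44 without ADC/cmLumiOpto 2 and 0.04 without the filter. The cause of these differences was not tested. With 2 samples per group the spread within a group limits every value. Each chaperone had at least 405 counts in every sample.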
